A study of Mus musculus with 8 samples.

Results

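The genes described are the cytosolic ribosomal proteins, the protein components of the cytoplasmic ribosome, in mouse C2C12 muscle cells with and without knockdown of DOR (Trp53inp2). Members were the genes whose single annotated symbol has the form Rpl or Rps with a number and at most 1 of a few letters, or is Rplp0 to Rplp2 or Rpsa. The rule found 46 genes on 100 probe sets, of 18193 genes with 1 symbol and 45037 probe sets in all. RefSeq lists 81 protein-coding genes whose symbols fit the rule, of which 45 are among the members. The 2 groups of 4 arrays were C2C12 cells transduced with a lentivirus encoding siRNA against DOR and C2C12 cells transduced with a lentivirus encoding scrambled RNA. C2C12 is an established mouse myoblast line that forms myotubes at low serum. Per the labels' protocols, both groups received virus at a multiplicity of infection of 100, were expanded over 5 to 7 days, were sorted to 93 to 99% GFP-positive cells and spent 4 days in 5% horse serum. Other labels call the cells confluent myoblasts, so the stage at harvest is not settled, and the labels do not say how the replicates were derived from the line, so the p-values measure the spread between these cultures, which may be technical.

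The cytoplasmic ribosome has a small (40S) subunit, which reads the mRNA and whose proteins are named Rps, and a large (60S) subunit, which joins amino acids and whose proteins are named Rpl. The acidic proteins Rplp1 and Rplp2 and their anchor Rplp0 form the stalk of the large subunit, which recruits translation factors. Ribosomal protein mRNAs are among the most abundant of a growing cell, and their translation is controlled through mTOR by a pyrimidine tract at their start. Some members have a paralog used in few tissues. Rpl3l is known as the striated muscle counterpart of Rpl3, Rpl39l is best known from testis, and Rps27l is a target of p53 in human cells.

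Promoters are shown for 3 bright members whose 150 bases before an annotated start hold the core of an ETS factor site, for the dim muscle paralog Rpl3l, and for the dim paralog Rpl39l. The sequences are from RefSeq on GRCm38.p6 and were matched by symbol, and capitals mark CCGGAAG or its reverse complement CTTCCGG. Those of Rps2 (chr17:24719913-24720062, plus strand), Rpl41 (chr10:128549169-128549318, minus strand), Rpl38 (chr11:114668430-114668579, plus strand), Rpl39l (chr16:10170078-10170227, plus strand) and Rpl3l (chr17:24727676-24727825, plus strand) read, 5′ to 3′:
Rps2: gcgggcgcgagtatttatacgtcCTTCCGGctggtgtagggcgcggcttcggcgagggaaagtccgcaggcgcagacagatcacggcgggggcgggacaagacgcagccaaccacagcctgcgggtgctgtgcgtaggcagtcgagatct
Rpl41: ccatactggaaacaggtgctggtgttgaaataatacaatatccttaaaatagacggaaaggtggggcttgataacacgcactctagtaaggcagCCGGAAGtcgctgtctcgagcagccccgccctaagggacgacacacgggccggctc
Rpl38: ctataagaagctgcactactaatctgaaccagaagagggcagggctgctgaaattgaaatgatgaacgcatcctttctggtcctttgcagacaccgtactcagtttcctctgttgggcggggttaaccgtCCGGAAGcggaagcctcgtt
Rpl39l: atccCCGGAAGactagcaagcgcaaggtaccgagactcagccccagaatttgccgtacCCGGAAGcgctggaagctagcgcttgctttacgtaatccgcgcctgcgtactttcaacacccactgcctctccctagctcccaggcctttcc
Rpl3l: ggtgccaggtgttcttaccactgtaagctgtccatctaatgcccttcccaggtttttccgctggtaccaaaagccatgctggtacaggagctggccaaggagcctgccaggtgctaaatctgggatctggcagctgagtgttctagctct
The letters CCGGAAG, searched on both strands from 250 bases before to 50 after each annotated start, were present for 20 of the 40 members with a promoter entry (50%), and for 9.93% of all 27025 genes with an entry. Among the 27 members with an entry that were near the ceiling of the arrays, the share was 48.1%. AAGATGG, the core of sites of YY1, was present for 7 of 40 members (17.5%) and 7.28% of all genes, and TATAAA for 5 of 40 (12.5%) and 15.7%. A match is a description of the letters and not of binding. Rpl39l, one of the dimmest members, held the ETS core at 2 places in the stretch shown, and Rpl3l at none in its windows.

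Most members lay at the top of the arrays. Values are log2 expression values per probe set, and each gene is represented by its brightest probe set. An array value counts as near the ceiling at or above the 99th percentile of that array, which lay between 12.62 and 12.66 log2 units. By that measure 32 of 46 members were near the ceiling on all 8 arrays and made up 18.1% of the 177 genes that were, while 13 were below it on every array. The remaining member, Rps19, which is mutated in human Diamond-Blackfan anaemia, was near the ceiling on 5 arrays. The median member mean was 13.48 log2 units, against 7.14 over all genes. The highest value of any probe set was 15.04 to 15.13, depending on the array.

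The brightest member was Rps2, a protein of the mRNA entry side of the 40S subunit, with 14.29, 14.28, 14.25 and 14.27 log2 units on the DOR siRNA arrays and 14.32, 14.27, 14.26 and 14.22 on the scrambled ones. It was followed by Rpl7a (14.14 ± 0.04 in DOR siRNA and 14.08 ± 0.01 in scrambled arrays; SD, n = 4 each) and Rps28 (14.11 ± 0.07 and 14.10 ± 0.04, in the same order). The groups overlapped for all 3. The dimmest member by its probe set was Rps16, with 3.45 ± 0.19 in DOR siRNA and 3.31 ± 0.22 in scrambled arrays (SD, n = 4 each). Brightness belongs to the probe set as well as the transcript, so this order of the members is an order of probe sets. Rps16 is one of 15 members that also have probe sets listing further symbols, which were not used for naming. Rpl14, Rpl27a, Rpl39, Rps6 and Rps27 are others of the 15, and their values below also come from single-symbol probe sets under the ceiling. The probe sets that list a family symbol beside other symbols had a median mean of 13.10.

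**Figure D1:**
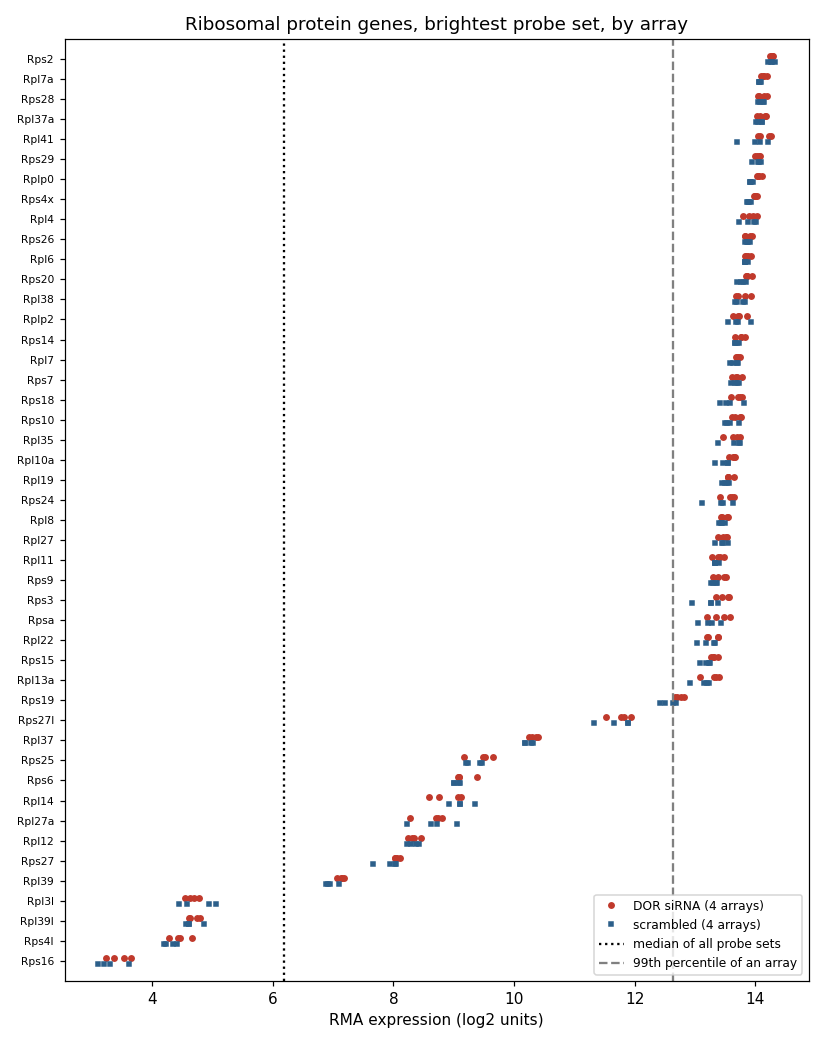
Log2 expression of the brightest probe set of each of the 46 members (rows, ordered by mean), with a point for each of the 4 DOR siRNA arrays and the 4 scrambled arrays. The 32 members near the ceiling lie right of the 99th percentile line, and Rpl3l, Rpl39l, Rps4l and Rps16 lie left of the median of all probe sets (6.18).

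Several probe sets report some members, and they read very different levels. Of the 23 members with more than 1 probe set, 12 had probe sets over 4 log2 units apart. For Rps18 the 6 probe sets spanned means of 3.54 to 13.65. In 8 members the difference between groups changed sign between probe sets. Rps3, for example, ran from -0.016 to 0.26. A shift seen on the brightest probe set was thus not always seen on the others, and 40 of the 100 probe sets carry the suffix _x_at, which marks probes that may match several transcripts. Signal of near-identical copies, such as pseudogene transcripts, cannot be separated from the member's own.

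No member changed by the limma test after Benjamini-Hochberg adjustment over all probe sets. The count of members called was 0 of 46 genes and 0 of 100 probe sets, where 4.56% of all genes were called (3.11% higher and 1.45% lower in DOR siRNA) and 3.22% of all probe sets. The smallest limma adjusted p was 0.22 over the member genes, that of Rps3. Over the member probe sets it was 0.20, for a probe set of Rpl13a (mean 11.15), with a difference of 0.30 ± 0.11. The brightest probe set of Rpl13a, a 60S protein named here after its values were seen, differed by 0.16 ± 0.10 (limma adjusted p = 0.52). Before adjustment, at 0.05, 2 members were higher (Rps3 and Rpl39) and 0 lower, where 11.5% and 6.55% of all genes were. DOR itself differed between the same arrays: Trp53inp2 read 9.46, 9.93, 9.49 and 9.18 in DOR siRNA and 11.50, 11.55, 11.43 and 10.92 in scrambled arrays, a difference of -1.83 ± 0.17 (limma adjusted p = 0.00087). Among the 177 genes near the ceiling on all arrays, 4.52% were called. All 8 of these calls fell among the 145 that are not members. Whether compression near the ceiling hid a change of the members was not tested.

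The differences were small and mostly of one sign. Of the 46 members 43 had a positive difference (DOR siRNA minus scrambled), as did 54.9% of all genes, and the median was 0.073 log2 units (1.05-fold) against 0.015 over all genes. All 32 members near the ceiling had a positive difference on their brightest probe set, with a median of 0.065. Among the 145 other genes near the ceiling 42.8% did, with a median of -0.032. Over all 100 member probe sets 82 were positive, and some of those near the ceiling were slightly negative (down to -0.014). By the brightest probe set, the 40S members (22, all positive) had a median of 0.11. The 60S members (24, of which 21 were positive) had a median of 0.043. Some 40S members had a dimmer probe set with a negative difference, down to -0.15 for Rps20. Members share arrays and were not independent, and no test was made of the list.

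The 95% limma interval of the difference lay within 0.5 log2 units of 0 (1.41-fold) for 45 of 46 members, and within 0.3 (1.23-fold) for 28. Rpl14 was the exception to the first, with an interval of -0.52 to 0.055. The intervals are on the deposited scale, where RMA and a signal near the top of the range can compress a difference, and normalization between arrays can remove a change common to most transcripts. In bulk RNA, fewer cells of a type and less RNA per cell cannot be told apart.

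**Figure D2:**
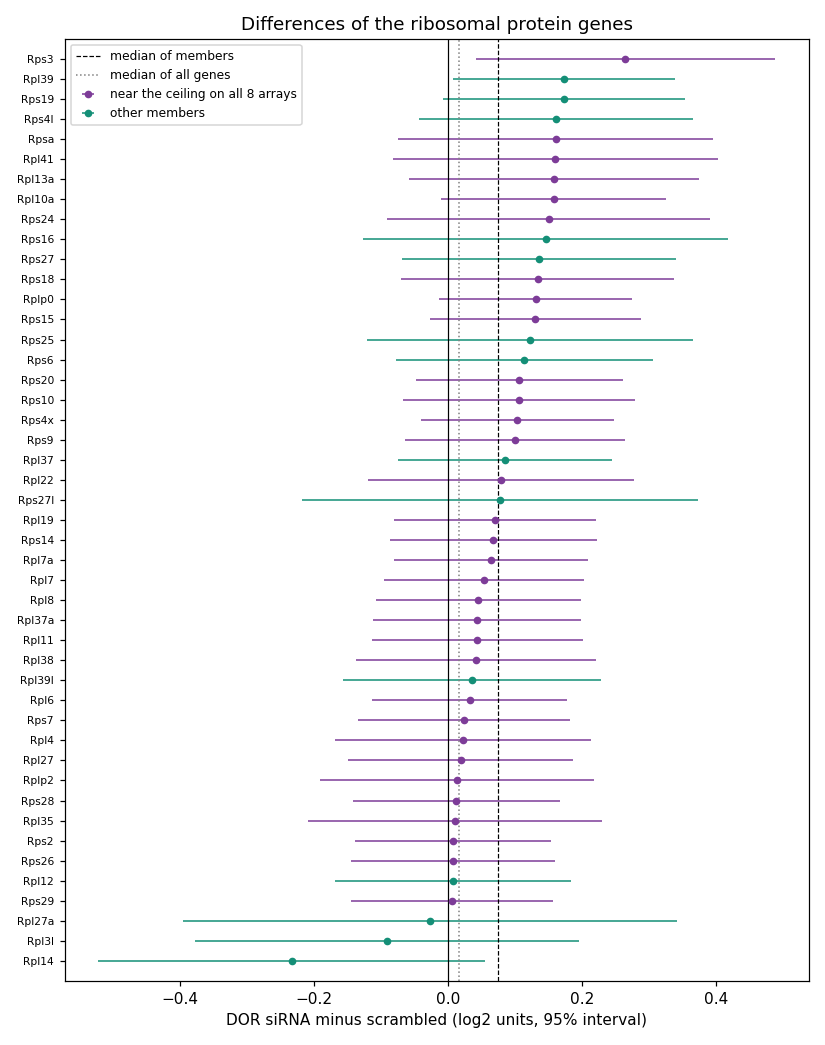
Difference between DOR siRNA and scrambled arrays in log2 units for each of the 46 members, with its 95% interval from limma (4 arrays per group). Points lie right of 0 for 43 members, from Rps3 at the top (0.26) to Rpl14 at the bottom (-0.23), and 44 intervals include 0.

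Among proteins of the small subunit, Rps3, which lines the path of the mRNA and is also known for DNA repair, had the largest difference. It read 13.55, 13.45, 13.36 and 13.57 in DOR siRNA and 12.95, 13.27, 13.27 and 13.39 in scrambled arrays, a difference of 0.26 ± 0.10 (SE, limma adjusted p = 0.22). The lowest of the 8 values was scrambled 1, and the groups overlapped. Without scrambled 1 the difference was 0.17. The other probe sets of Rps3, with means of 7.51 and 5.92, differed by -0.016 and -0.0042.

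Rps19 read 12.77, 12.81, 12.66 and 12.70 in DOR siRNA and 12.42, 12.69, 12.51 and 12.64 in scrambled arrays (difference 0.17 ± 0.08, limma adjusted p = 0.36). Here too the lowest value was that of scrambled 1. Rps6, the substrate of the S6 kinases of the mTOR pathway, read 9.09, 9.39, 9.09 and 9.08 in DOR siRNA and 9.01, 9.11, 8.997 and 9.08 in scrambled arrays (0.11 ± 0.09, limma adjusted p = 0.63). The value of DOR siRNA 2 stood apart from the other 7, and without it the difference was 0.037. Rpsa, known also as a laminin receptor precursor, differed by 0.16 ± 0.11 (limma adjusted p = 0.56, and 0.26 with same-numbered arrays paired). Its groups overlapped, but the 4 same-number differences were 0.20, 0.15, 0.13 and 0.16. All 4 were also positive for other members, among them Rps3 (0.09 to 0.60) and Rps19 (0.07 to 0.35). The share of such genes among all genes was not computed. For Rpsa the difference was 0.093 without scrambled 4 and 0.098 without DOR siRNA 2.

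For 5 members the 4 DOR siRNA values all lay above the 4 scrambled ones, a pattern found for 8.1% of all genes and 11.9% of those near the ceiling, and for 0 members all lay below (4.13% of all genes). The 5 were Rplp0, Rpl10a, Rps4x, Rps15 and Rps20, each near the ceiling; Rps15 and Rps20 are named after their values were seen. Rplp0, the stalk anchor that is often used as a reference gene, read 14.10, 14.06, 14.04 and 14.03 in DOR siRNA and 13.93, 13.91, 13.92 and 13.95 in scrambled arrays (0.13 ± 0.07, limma adjusted p = 0.39). Its gap between the groups was wider than the spread within either, but at 1.09-fold it did not pass the test over all probe sets. Rps4x, the X-linked protein of the small subunit, read 13.99, 14.02, 13.998 and 13.97 in DOR siRNA and 13.93, 13.86, 13.90 and 13.87 in scrambled arrays (0.10 ± 0.07, limma adjusted p = 0.53). Rps15 and Rps20, both of the 40S head, had differences of 0.13 ± 0.07 (limma adjusted p = 0.45) and 0.11 ± 0.07 (0.56), the groups of Rps20 lying less than 0.01 log2 units apart. The dim probe sets of Rps20, 2 in number, had differences of -0.06 and -0.15.

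In the large subunit, Rpl10a of the L1 stalk read 13.65, 13.66, 13.57 and 13.63 in DOR siRNA and 13.32, 13.54, 13.46 and 13.55 in scrambled arrays (0.16 ± 0.08, limma adjusted p = 0.36). Rpl39, a small protein of the peptide exit tunnel, read 7.18, 7.13, 7.16 and 7.06 in DOR siRNA and 6.88, 7.10, 6.95 and 6.92 in scrambled arrays (0.17 ± 0.08, limma adjusted p = 0.30). The highest scrambled value lay above the lowest of DOR siRNA. Rplp2, the other stalk protein measured, differed by 0.01 ± 0.09 (limma adjusted p = 0.98), and Rpl11, which binds Mdm2 when ribosome assembly is disturbed, by 0.04 ± 0.07 (0.87).

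The 3 members with a negative difference were all 60S genes, each read by a probe set below the ceiling. Rpl14 read 9.12, 9.08, 8.75 and 8.59 in DOR siRNA and 9.11, 9.35, 9.10 and 8.92 in scrambled arrays (-0.23 ± 0.13, limma adjusted p = 0.46). DOR siRNA 3 and 4 were below all scrambled values, whereas DOR siRNA 1 and 2 were not. The 4 same-number differences were 0.013, -0.27, -0.35 and -0.33. With same-numbered arrays paired, Rpl14 was the 1 member lower before adjustment (limma p under 0.05, adjusted p = 0.17). The difference was -0.13 without DOR siRNA 4 and -0.31 without DOR siRNA 1. Rpl27a differed by -0.03 ± 0.17 (limma adjusted p = 0.97), with an SD of 0.24 in DOR siRNA and 0.34 in scrambled arrays, and Rpl3l by -0.09 ± 0.13 (limma adjusted p = 0.84).

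Rpl3l could not be set against Rpl3, since the probe sets that list Rpl3 list other symbols beside it. Its own probe set read 4.64, 4.77, 4.70 and 4.55 in DOR siRNA and 4.95, 5.05, 4.58 and 4.44 in scrambled arrays. Each of the 8 values was below 6.18, the median of the probe set means, and no detection call was used here to set it against background. Scrambled 1 and 2 were the highest arrays, and scrambled 4 the lowest. An interval of -0.38 to 0.20 bounds the difference on this scale.

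Of the other paralogs, Rpl39l and Rps4l were also dim. Rpl39l read 4.70 ± 0.09 in DOR siRNA and 4.66 ± 0.14 in scrambled arrays, and Rps4l, which RefSeq lists as a transcribed pseudogene although its symbol matches the rule, 4.46 ± 0.16 and 4.29 ± 0.10 in the same order (SD, n = 4 each). Rps27l was the bright one, with 11.94, 11.83, 11.53 and 11.77 in DOR siRNA and 11.32, 11.90, 11.65 and 11.88 in scrambled arrays (0.08 ± 0.13, limma adjusted p = 0.87). Its lowest value was scrambled 1 and its 3 probe sets had means of 11.61 to 11.73. The per-array gap between paralog and partner was computed for the 3 pairs with single-symbol probe sets, chosen after Rpl3 was found to have none. For Rps27l over Rps27, both above the median of all probe sets, it changed by -0.057 (exact two-sided permutation p = 0.80, adjusted over the 3 pairs p = 0.80, where 0.029 is the smallest possible). The gaps of Rps4l over Rps4x and Rpl39l over Rpl39 rest on a paralog probe set under that median, and Rps4x is near the ceiling, so no change is read from them.

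**Figure D3:**
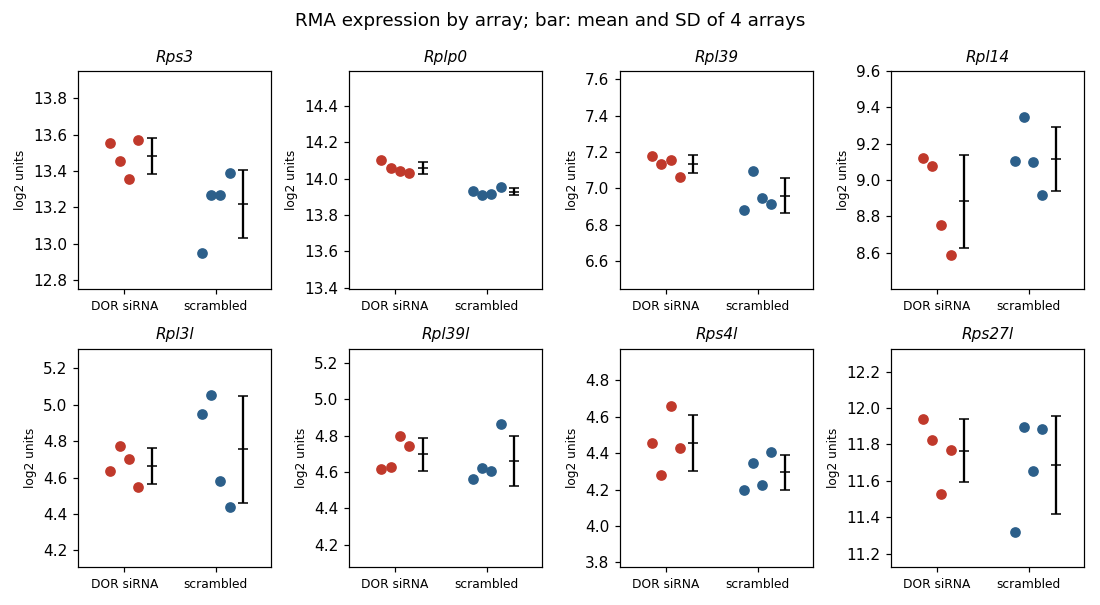
Log2 expression of 8 members on the 4 DOR siRNA arrays (left in each panel) and the 4 scrambled arrays (right), with the mean and SD of each group; every vertical axis spans the same range of log2 units. The groups are apart for Rplp0 only. Scrambled 1, the first scrambled point, is the lowest value of Rps3, Rpl39, Rpl39l, Rps4l and Rps27l.

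The mean of the members varied from array to array. The mean deviation of the 46 members from their own means was 0.083, 0.073, -0.027 and 0.017 log2 units on DOR siRNA 1 to 4 and -0.10, 0.023, -0.049 and -0.019 on scrambled 1 to 4. Across numbers the groups overlapped, since scrambled 2 lay above DOR siRNA 3 and 4. Between arrays of the same number, DOR siRNA minus scrambled was positive in all 4 pairs, at 0.19, 0.05, 0.023 and 0.036. Scrambled 1 held the lowest value of 20 of 46 members and DOR siRNA 1 the highest of 17. Not every member followed this order, since Rps2 was highest on scrambled 1 (14.32). The mean shift of the 46 members between groups was 0.073, and 0.052 without scrambled 1. The 14 members not near the ceiling on all arrays followed the same order at the extremes, with DOR siRNA 1 highest (0.084) and scrambled 1 lowest (-0.11).

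**Figure D4:**
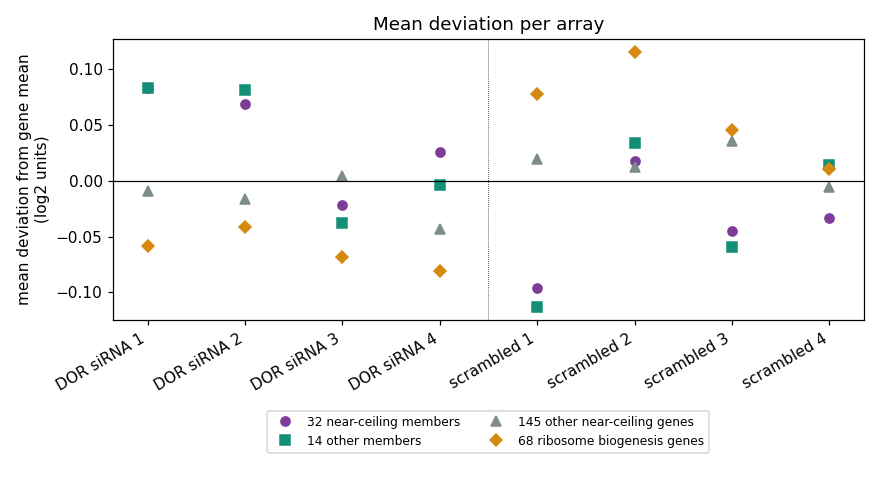
Mean deviation from the gene mean in log2 units on each array, for the 32 members near the ceiling, the 14 other members, the 145 other genes near the ceiling and the 68 ribosome biogenesis genes; DOR siRNA arrays are left of the dotted line. Members spread from -0.11 to 0.084 with overlap of the groups, and ribosome biogenesis genes were negative on the 4 DOR siRNA arrays and positive on the 4 scrambled ones.

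Other measures of the arrays stand beside this. The mean of the poly-A spike probe sets was 7.41 to 7.89 on DOR siRNA and 7.36 to 8.10 on scrambled arrays, where scrambled 1 was highest. The 3′ minus 5′ difference of the actin control was 0.28 to 0.50 on DOR siRNA and 0.31 to 0.40 on scrambled arrays. Cell cycle genes rose for 9 of 14 measured (3.11% of all genes were called higher), with mean deviations of 0.19 to 0.39 on DOR siRNA and -0.43 to -0.14 on scrambled arrays, and 5 did not pass the test. Of 8 muscle-lineage markers 1 fell (1.45% of all genes were called lower), Tnnt3, which encodes fast skeletal troponin T (-0.70 ± 0.16, limma adjusted p = 0.036). Before adjustment 5 of the 8 were lower and 1 higher (limma p under 0.05), where 6.55% and 11.5% of all genes were. The median of the 8 was -0.26. Their mean deviation was -0.31 to 0.011 on DOR siRNA and -0.083 to 0.20 on scrambled arrays. The muscle markers were all above the median of probe sets, whereas the 2 adipocyte and 3 endothelial markers measured were all below it; 2 of 4 macrophage, 2 of 3 epithelial and 2 of 2 neuronal markers were at or above it, and 0 of these 14 changed. With the poly-A level as a covariate the median member difference was 0.077, against 0.073 without it, and 41 of 46 members were positive. The part of the other measures in the shift of the members was not tested.

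A second set of probe sets reports the family without naming a gene. There were 110 probe sets that listed a family symbol beside other symbols, and 28 family symbols occurred on these alone. None of the 110 was called by limma (smallest adjusted p = 0.19), where 3.22% of all probe sets were. Before adjustment 9 of the 110 were higher and 1 was lower at 0.05. The shares at hand, 11.5% and 6.55%, are of all genes by their brightest probe set and not of all probe sets. Of them 86 had a positive difference and 24 a negative one, with a median of 0.049. Their direction was that of the members, but they were measured on the same arrays and are not independent of them. Of ribosomal protein genes and near relatives outside the rule, 0 of 5 changed by limma, with Rpl22l1 at 0.15 ± 0.08 and Fau, which encodes a 40S protein fused to a ubiquitin-like one, at 0.07 ± 0.09 (0 of 5 also at an unadjusted p under 0.05).

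Genes that build ribosomes mostly had negative differences, and 3 of them passed the test. Of 68 ribosome biogenesis genes 3 fell, 0 rose and 65 did not pass the test (1.45% of all genes were lower). Before adjustment 21 were lower and 0 higher (limma p under 0.05), where 6.55% and 11.5% of all genes were. The list's median was -0.11 and 58 of 68 differences were negative. All 4 DOR siRNA values lay below all scrambled values for 16 of them, against 4.13% of all genes. Rrp8, a nucleolar methyltransferase, read 7.81, 7.92, 7.84 and 7.66 in DOR siRNA and 8.24, 8.50, 8.27 and 8.23 in scrambled arrays and fell by 0.50 ± 0.09 (limma adjusted p = 0.014). Its groups did not overlap. Noc3l, a factor of 60S assembly, fell by 0.31 ± 0.07 (limma adjusted p = 0.035) and Ftsj3, an rRNA methyltransferase, by 0.34 ± 0.08 (0.042). Of these calls that of Rrp8 was kept whichever array was left out. The number that fell was 1 without any one of DOR siRNA 1, 3 or 4 or scrambled 1, 2 or 3. It was 4 without DOR siRNA 2, 5 without scrambled 4 and 6 with same-numbered arrays paired. The shares of all genes called lower in these other fits are not given here, so these counts cannot be set against them.

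Among other translation genes, 1 of 43 translation factors fell, where 1.45% of all genes were called lower. It was Eif4ebp2, an inhibitor of cap-dependent initiation, which read 7.70, 8.03, 8.28 and 8.12 in DOR siRNA and 8.60, 8.68, 9.22 and 8.75 in scrambled arrays (-0.78 ± 0.15, limma adjusted p = 0.021, and 0.052 without DOR siRNA 1). The median of these factors was -0.0068, with 2 higher and 5 lower before adjustment (limma p under 0.05). Over all genes 4.56% were called, and before adjustment 11.5% were higher and 6.55% lower. RNA polymerase I, which transcribes the ribosomal RNA, and its factors had 0 of 16 members called, with 3 higher and 3 lower before adjustment (p under 0.05) and a median of -0.017. Of 9 genes around Mdm2, p53 and Myc, 0 were called, with 1 higher and 1 lower before adjustment (p under 0.05); Mdm2 itself differed by -0.20 ± 0.09 (limma adjusted p = 0.33) and Myc by -0.31 ± 0.18 (0.48).

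**Figure D5:**
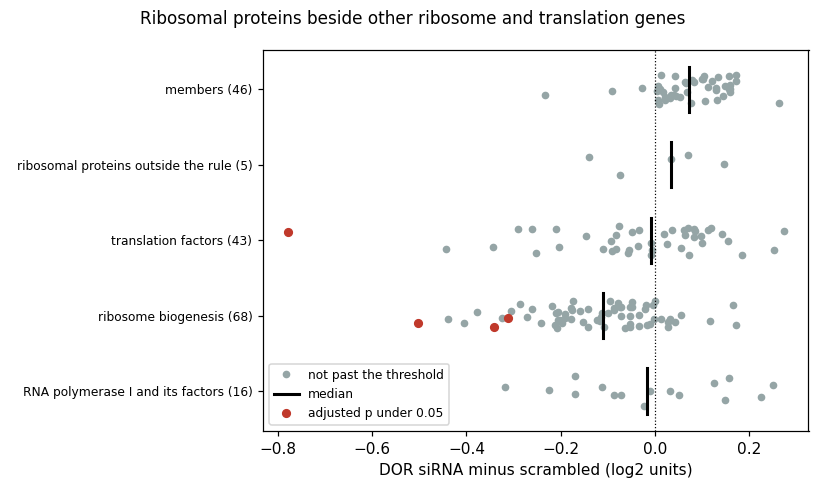
Difference between DOR siRNA and scrambled arrays in log2 units for the 46 members and 4 lists of related genes, one point per gene, with the median of each list as a bar and called genes marked. The members centre at 0.073 and the 68 ribosome biogenesis genes at -0.11, and the called genes are Eif4ebp2, Rrp8, Noc3l and Ftsj3.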

How the data were processed

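Affymetrix 1-colour arrays, 8 in number, were made from 25 ng of total RNA after whole transcriptome amplification, per the labels' protocols. The deposited values are log2 expression values per probe set, which the authors made with RMA, per the submitters' processing notes; the RMA implementation is not given in the sources used here; scanner files were not used. Array medians lay between 6.14 and 6.20, and arrays correlated at 0.988 to 0.997. For arrays, their number limits the precision.

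Of the probe sets, 64 controls were left out and 45037 were tested with limma 3.58.1 in R 4.3.3 (group alone, eBayes, two-sided, Benjamini-Hochberg over all probe sets, called at an adjusted p under 0.05). Names came from GEO's platform annotation, for the 34945 probe sets to which it gives 1 symbol, and the entrez identifiers of all 100 member probe sets matched RefSeq with the same symbol. A gene is its probe set with the highest mean. The fit was tested on simulated data. Members and lists were chosen with earlier results of these data known. Genes were named by a rule, which took called members, paralogs, stalk and well-known members, and the 5 smallest p in each direction. It also took the 3 brightest and 3 dimmest members, and up to 3 called genes of each context list. Other genes (Rpl13a, Rps15, Rps18, Rps20, Rps27, Rpl38, Rpl41, Rpl22l1, Fau, Mdm2 and Myc) were named after their values were seen. Lists were not tested as sets. Figures used matplotlib 3.10.9.

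Same-numbered arrays deviated together (correlations of 0.142 to 0.468 over all probe sets, against -0.394 to 0.265 between different numbers), so the fit with replicate number as a block is given where it changes a call or a count. The values, errors and p-values printed are from the fit without the block unless pairing is named.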

Additional observations from a re-analysis of the deposited data

Results flagged for a closer look

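Among 42 groups of 4 arrays examined (the 20 members named by rule and the mean deviation of all members, in each group), 2 held an array far from the other 3 relative to the range of the group. Chance flags about 1 in 20 groups. Rps6 read 9.39 on DOR siRNA 2, with the nearest other array of that group at 9.09. Rpl11 read 13.39 on scrambled 2, with the nearest other at 13.33, in a group whose SD was 0.03. Both arrays were kept.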

How the results depend on the processing

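The count of members called was 0 in each direction under all 8 other settings and with any 1 array left out (0 to 0). The median member difference stayed positive, at 0.064 to 0.084 over the other settings and 0.050 to 0.094 with 1 array left out. Members with a positive difference were 19 of 27 with the brightest probe set under the 99th percentile, which 27 members have, and 37 to 43 with 1 array left out. At an unadjusted p under 0.05 the members higher were 4 with the variance trend, 6 with the mean of all probe sets, 1 under the 99th percentile, 0 with the poly-A covariate and 0 to 4 with 1 array left out; the members lower were 1 with the replicate block and 0 to 1 with 1 array left out. Pairing by number (the replicate block) changed no other call of a member. Ribosome biogenesis genes called lower, an addition after the data were seen like both counts above, were 6 with the replicate block, 10 with the mean of all probe sets, 5 among probe sets at or above the median, 1 with the poly-A covariate and 1 to 5 with 1 array left out; the cause was not tested. The shares of all genes under these other settings are not given here. Neither these counts nor those of the members above can therefore be set against them. Noc3l and Ftsj3 lost their calls with the variance trend (limma adjusted p = 0.051 and 0.056) and the poly-A covariate (0.087 and 0.071).

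Of 307 values of named members under the alternatives, 11 changed sign. No member was called, so no called difference could change sign. With 1 array left out, differences were -0.045 to 0.081 for Rplp2, -0.014 to 0.032 for Rps28, -0.17 to 0.11 for Rpl27a, -0.045 to 0.16 for Rps27l, -0.20 to 0.0074 for Rpl3l and -0.0096 to 0.025 for Rps2. Under the 99th percentile, which takes a dimmer probe set, Rps4x was -0.044 and Rps3 -0.016. Signs turned without DOR siRNA 2 (Rplp2, Rps28), DOR siRNA 3 (Rpl27a), scrambled 1 (Rps27l), scrambled 2 (Rpl3l) and scrambled 4 (Rplp2, Rpl27a, Rps2, Rps28). The planned comparison of Rpl3l with Rpl3 was not run, as no probe set lists Rpl3 alone. Values near the ceiling and values under the median of all probe sets limit what the arrays can show.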
